A study of Caenorhabditis elegans with 37 samples.

Results

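Transcript levels are described here for 8 genes that encode regulators of alternative splicing: unc-75, exc-7, mbl-1, asd-1, fox-1, ptb-1, mec-8 and sup-12. They were chosen by symbol and matched to their WormBase gene identifiers, and they are 8 of the 30631 genes in the deposited count table. RNA was sequenced from 37 libraries of untreated Caenorhabditis elegans cells, taken from dissociated animals on a flow sorter. Single-type sorts covered the chemosensory neurons ASG (4 libraries), AWA (4) and AWB (5), the interneurons AVE (3) and AVG (3), the GABAergic motor neurons DD (3) and VD (4), and the nociceptor PVD (2). A pan-neuronal reference (5 libraries) was sorted by a marker the labels name Rab3, and an all-cell reference (4) used only viability stains. The worms were grown on 8P plates with NA22 bacteria. The labels used here do not give the strains, the reporter of each single-type sort, the age of the animals or whether each library had its own culture. The p-values therefore refer to the spread between libraries as sequenced, part of which may be technical. Libraries are named by group and by the number in their titles.

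A pre-messenger RNA can be spliced into different products when RNA-binding proteins bind short motifs in or near an exon and help or block its use by the spliceosome. Neurons of many animals use families of such proteins, and the combination present in a cell shapes which isoforms of synaptic, channel and signalling genes it makes. In this set, unc-75 encodes a CELF-family protein and exc-7 an ELAV-family protein, both known in C. elegans for neuronal exon choice. The Muscleblind family is represented by mbl-1, the Rbfox family by asd-1 and fox-1, and the polypyrimidine tract binding proteins by ptb-1. The protein of mec-8 is known for splicing of the touch receptor gene mec-2, and that of sup-12 for muscle exons, together with the Rbfox pair, in the FGF receptor gene egl-15.

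In the WBcel235 annotation the genes lie at I:11592246-11601712 (unc-75, WBGene00006807, plus strand), II:9575970-9581560 (exc-7, WBGene00001368, plus), X:16978608-17010302 (mbl-1, WBGene00019347, plus) and III:4197285-4202288 (asd-1, WBGene00011279, plus). The others lie at X:2445117-2459893 (fox-1, WBGene00001484, minus), II:10675602-10690282 (ptb-1, WBGene00004207, plus), I:9441010-9444227 (mec-8, WBGene00003172, minus) and X:3904584-3907673 (sup-12, WBGene00006321, plus). All are protein-coding. In 5 of them an exon overlaps an exon of a gene on the opposite strand: exc-7 by 25 bases (wee-1.1), asd-1 by 36 (pelo-1), fox-1 by 9 (R04B3.6), ptb-1 by 71 (D2089.7) and mec-8 by 20 (C17E4.10). The sources used here do not say whether counting used strand, so reads over these bases cannot be assigned.

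Library totals ran from 251586 to 5415925 counts, lowest in AWB (251586 to 951675) and highest in VD (2254581 to 5415925). All 8 genes passed the filter on low counts that 15181 genes passed. Levels are given as CPM, the count divided by the library total times its TMM factor and set to the usual common total. By group mean, the marker lists of 5 sorted types were highest in their own sort, for AVG narrowly (508 to 1031 CPM in AVG, 490.4 to 898 in ASG). The VD list (unc-25, unc-47, unc-30, unc-55) summed to a mean of 5639 CPM in DD and 3194 in VD. The DD list has flp-13 in place of unc-55 and is otherwise the same, so neither sum by itself separates DD from VD. The AVE list (glr-1, nmr-1, glr-2) summed to 495 to 3305 CPM in AVG against 173 to 492.9 in AVE. The AWB list (str-1, lim-4, str-44) summed to 157 to 2773 in AWA against 33.1 to 1171 in AWB. The AWA receptor gene odr-10 and its regulator odr-7 summed to 1134 to 13231 CPM in AWA, and the ASG marker ops-1 was at 0 in AVE, AVG, AWB, DD, PVD and all-cell libraries. In 5 libraries values stood apart. Pan-neuronal 1, in the reference of the comparisons with sorted types, had 414 CPM of the AWA list against 7.03 to 15.9 in the other pan-neuronal libraries, 955 of the ASG list against 234 to 269 and 166 of the AWB list against 35.9 to 53.9. Its counts differed from theirs by a chi-square of at least 34.7 per degree of freedom, against 2.45 to 3.97 among the others. The summed level of 15 pan-neuronal markers was 2490 CPM in AWA 20 against 7834 to 12322 in the other AWA libraries, and 1194 in AWB 51 against 7273 to 16191 in the other AWB libraries. The 11 body-wall muscle markers summed to 24560 CPM in ASG 15 against 8591 to 11280 in the other ASG libraries. The all-cell library 27 had 451 CPM of the AVE list against 12.4 to 26.02 in the other all-cell libraries, and 29067 CPM of body-wall muscle markers against 6226 to 15934.

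**Figure D1:**
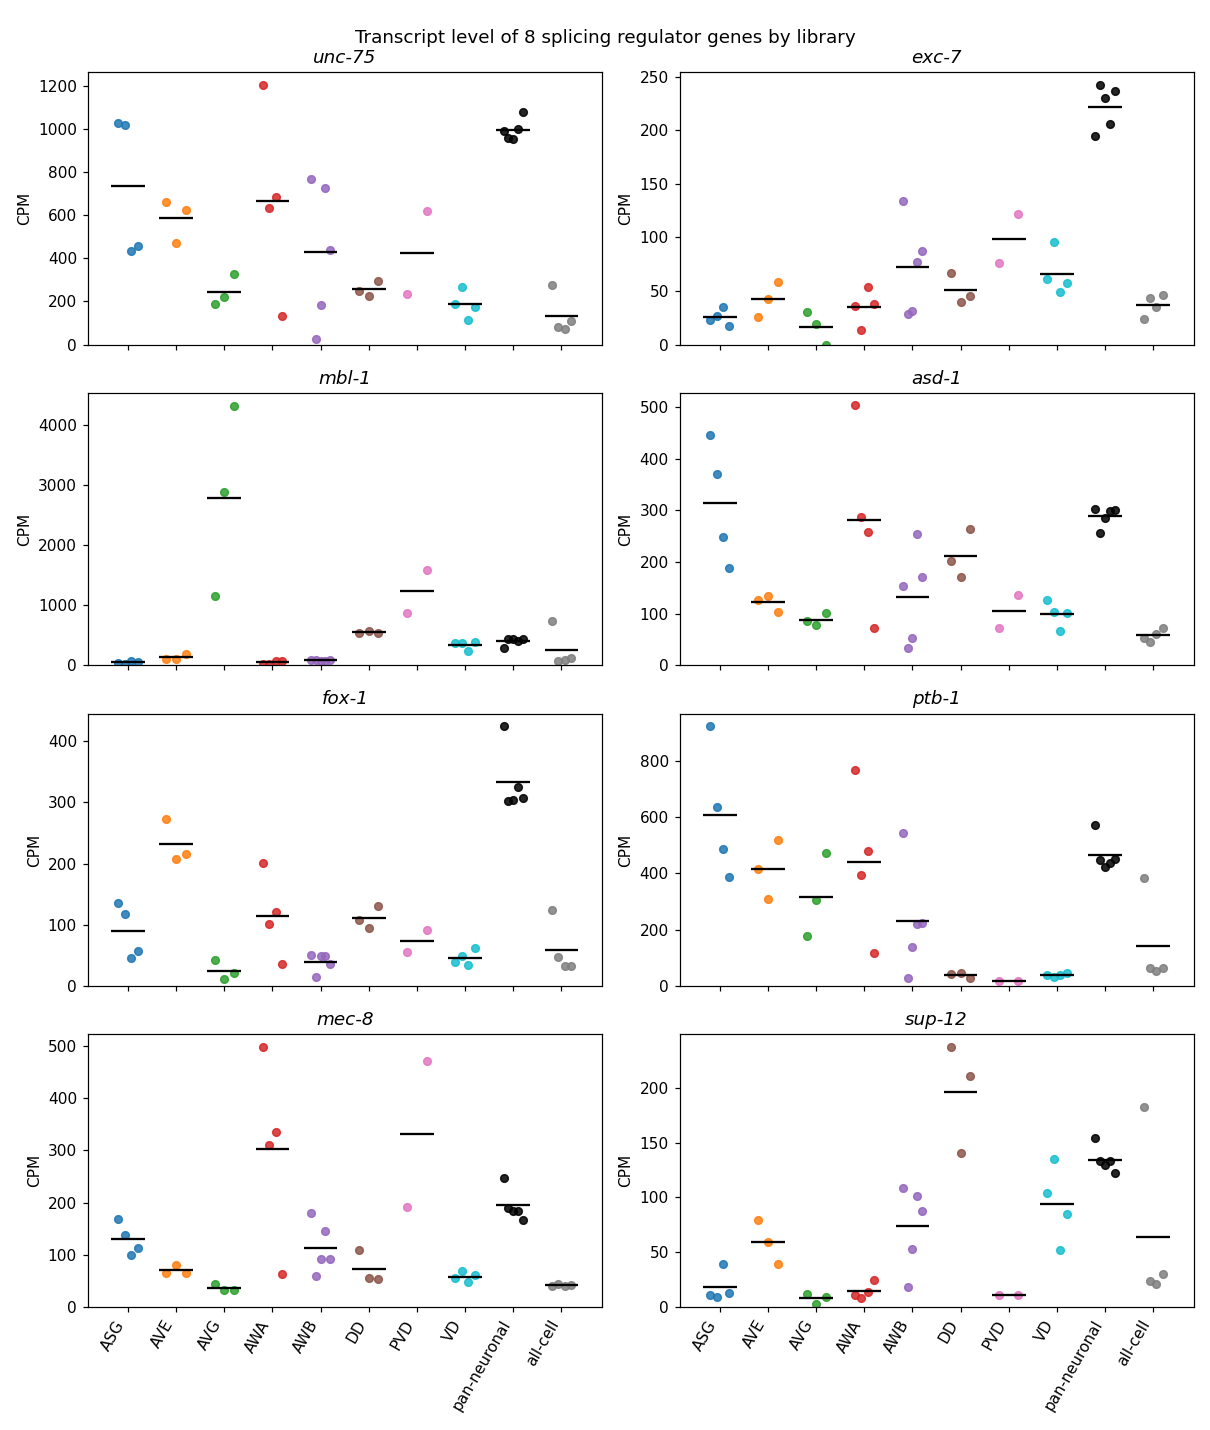
Level of each of the 8 genes in CPM (y axis, linear, each panel with its own scale) by group (x axis), with 1 point per library and a bar at the group mean. AVG and PVD stand highest for mbl-1, DD, PVD and VD lowest for ptb-1, and DD highest for sup-12; all-cell 27 lies above the other all-cell libraries for 5 genes.

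The first comparison set neurons as a whole against all cells. Of the 8 genes, 6 were higher in the pan-neuronal libraries and 0 were lower, while 32.2% of all genes tested were called higher and 26.9% lower (edgeR quasi-likelihood test, with a threshold of 0.05 after Benjamini-Hochberg adjustment). In bulk samples, fewer cells of a type and less RNA per cell cannot be told apart. The CELF gene unc-75 had 953, 961, 991, 1003 and 1082 CPM in the pan-neuronal libraries and 69.9, 80.7, 111 and 276 in the all-cell libraries. The groups did not overlap, and 30.6% of all genes tested were likewise higher without overlap. The log2 difference was 2.89 ± 0.61 (SE, edgeR adjusted p = 1.59e-04). The ELAV gene exc-7 had 195 to 243 CPM in the pan-neuronal and 23.4 to 46.3 in the all-cell libraries, a log2 difference of 2.57 ± 0.46 (adjusted p = 2.57e-05). The other higher genes were asd-1 (log2 difference 2.31 ± 0.44), fox-1 (2.48 ± 0.44), mec-8 (2.22 ± 0.38) and ptb-1 (1.72 ± 0.55), with edgeR adjusted p from 1.37e-05 to 0.00855. The pan-neuronal markers summed to 20562 to 28188 CPM in the pan-neuronal and 1524 to 3976 in the all-cell libraries; their part in these differences was not tested.

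The 2 genes that did not pass were mbl-1 and sup-12, both also known from muscle, and for both the all-cell group was split. For mbl-1, all-cell 27 had 740.0 CPM and the other all-cell libraries 68.3, 94.7 and 129.6, against 289, 405, 432, 434 and 437 in the pan-neuronal libraries. For sup-12, all-cell 27 had 182 CPM and the others 21.4, 23.9 and 29.9, against 121.95, 130.0, 133, 133 and 154. The pan-neuronal values thus fell between all-cell 27 and the remaining all-cell libraries in each case. The log2 differences were 0.63 ± 0.48 for mbl-1 (edgeR adjusted p = 0.252) and 1.07 ± 0.51 for sup-12 (0.0701). Without all-cell 27 they were 2.03 (edgeR adjusted p = 1.09e-04) and 2.42 (9.51e-05), and all 8 genes were called higher. The differences of unc-75, fox-1 and ptb-1 were then 3.51, 3.12 and 2.95. Over all genes, 5014 were called higher and 4051 lower without this library, against 4881 and 4077 with it. All-cell 27 was itself high in mbl-1, fox-1, ptb-1 and sup-12, so the count of 8 follows in part from the library left out. The sup-12 difference was also called without pan-neuronal 11 (1.29, adjusted p = 0.0449).

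**Figure D2:**
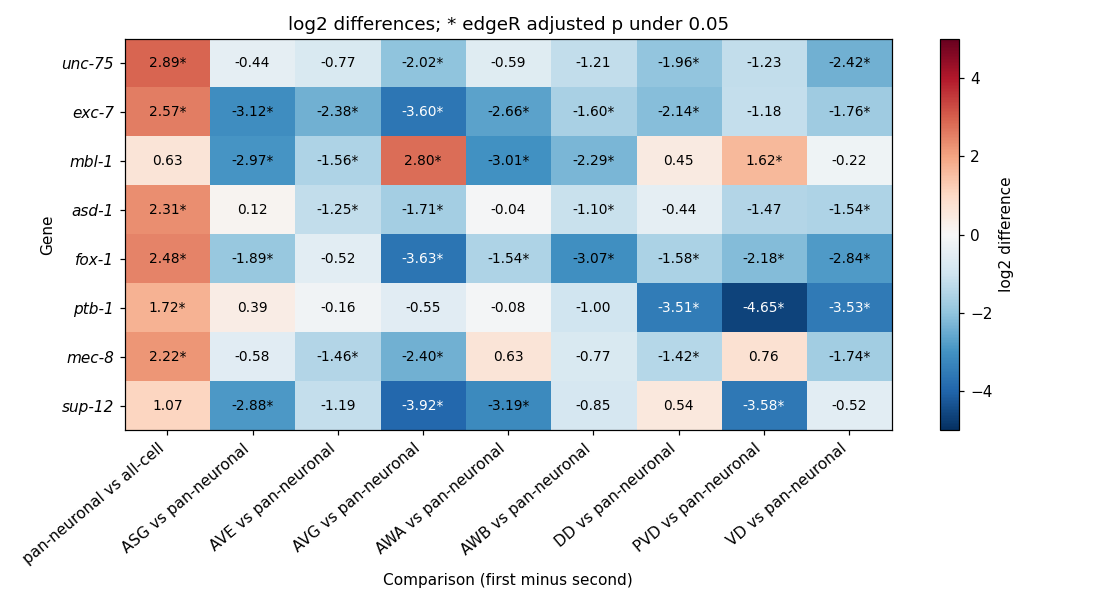
Log2 difference of each gene (rows) between pan-neuronal and all-cell libraries (first column) and between each sorted type and the pan-neuronal libraries (other columns), first group minus second; a star marks an edgeR adjusted p under 0.05. Against the pan-neuronal reference, the starred positive values are mbl-1 in AVG (2.80) and PVD (1.62), and the most negative is ptb-1 in PVD (-4.65).

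Each sorted type was then set against the pan-neuronal reference, and the 8 comparisons share those 5 libraries. Across them 38 differences were called, of which 2 were higher, both of mbl-1, and 30 kept their call under every alternative tried. Without pan-neuronal 1, 36 of the 38 kept it; mbl-1 in PVD and asd-1 in AVE did not. In AVG, 1 gene was higher and 6 lower (11.7% and 19.7% of all genes), and in VD 0 were higher and 6 lower (27.7% and 28.5%). DD had 0 higher and 5 lower (18.3% and 20.8%), and PVD 1 higher and 3 lower (8.84% and 13.8%). ASG, AVE, AWA and AWB each had 4 lower, where 20.8%, 20.5%, 19.8% and 24.1% of all genes were lower. The summed level of pan-neuronal markers was also below the pan-neuronal libraries in most sorts, from 1194 CPM in AWB 51 to 21129 in ASG 14; its part in these counts was not tested. The 8 types were also compared among themselves without the references. All 8 genes differed among the types, as did 56.3% of all genes tested (edgeR F test with 7 degrees of freedom). By p, mec-8 ranked 1665 among the 15181 genes tested. Of these genes, 2.48% had a lower p than mbl-1, 12.1% than sup-12, 12.4% than ptb-1, 18.9% than fox-1, 32.4% than asd-1, 37.2% than exc-7 and 54.2% than unc-75. The edgeR call of unc-75 (adjusted p = 0.0419) ended without any of 11 single libraries (AVE 42, AVG 43, AWA 17, 18 or 19, DD 83, 84 or 86, VD 77, 79 or 81; adjusted p from 0.0528 to 0.0897).

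The 28 pairs of types differed in how many genes they told apart, which sets the background for every pair named below. Of all genes tested, ASG differed from VD in 36.2%, from AWB in 26.7%, from AVG in 23.2%, from DD in 22.7%, from AVE in 22.4%, from PVD in 16.4% and from AWA in 15.7%. AVE differed from AWB in 19.5%, from AWA in 18.9%, from VD in 14.8%, from AVG in 12.6%, from PVD in 8.56% and from DD in 7.65%. AVG differed from AWA in 16.6%, from AWB in 13.5%, from VD in 12.4%, from DD in 6.89% and from PVD in 5.95%. For AWA the shares were 26.1% with VD, 16.1% with AWB and with DD and 10.9% with PVD, and for AWB 18.4% with VD, 13.7% with DD and 7.73% with PVD. The PVD pairs had 5.81% with VD and 4.66% with DD, and DD and VD differed in 0.184%. The pairs called numbered 17 for mbl-1, 16 for ptb-1, 15 each for mec-8 and sup-12, 11 for fox-1, 6 each for exc-7 and asd-1 and 2 for unc-75.

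The CELF gene unc-75 had its highest type means in ASG (735 ± 335 CPM, SD, n = 4), AWA (664 ± 439, n = 4) and AVE (586 ± 101, n = 3). The ASG libraries had 433, 458, 1019.95 and 1029 CPM, so that both upper libraries lay within the range of the pan-neuronal group and the others below it. In AWA the values were 132, 635, 683 and 1207 CPM, the lowest in AWA 20. AWB spread most, with 24.5 CPM in AWB 51 and 184, 439, 728 and 769 in the other libraries. At the low end stood AVG (189.8, 219.9 and 328 CPM), DD (224, 247 and 296) and VD (114, 176, 189.6 and 266). These types lay below every pan-neuronal library, and so did AVE, AWB and PVD. Of all genes tested, 22.9% (AWB) to 30.3% (VD) were lower without overlap in these types. The called differences from the pan-neuronal group were -2.02 ± 0.65 in AVG (edgeR adjusted p = 0.0171), -1.96 ± 0.65 in DD (0.0158) and -2.42 ± 0.59 in VD (9.38e-04). The AVG call ended without AVG 43 and the DD call without DD 83 or DD 84, with adjusted p up to 0.0805 and 0.0629. Between types, 2 of 28 pairs were called, ASG above VD and AWA above VD, the latter lost without AWA 17 or VD 79 (adjusted p up to 0.122).

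The ELAV gene exc-7, known also for the shape of the excretory canal, was low in every sorted type compared with the pan-neuronal group. It had 195, 206, 230.3, 236 and 243 CPM in the pan-neuronal libraries, and its highest value in any single-type library was 134 in AWB 50. AVG had 30.8, 19.5 and 0 CPM, and the count of 0 in AVG 45 allows a level of up to 7.19 CPM (3 counts, counting error only). ASG had 17.7 to 34.7 CPM. No library of a sorted type overlapped the pan-neuronal libraries. Of the 15181 genes tested, from 3038 (AWA) to 4602 (VD) were likewise lower without overlap in a single type. How many genes were so in every type at once was not counted. The difference was called in 7 types, from -1.60 ± 0.42 in AWB (edgeR adjusted p = 0.00226) to -3.60 ± 0.58 in AVG (1.53e-05), and not in PVD (-1.18 ± 0.57, adjusted p = 0.139; libraries at 76.1 and 121.7 CPM). The excretory canal markers (aqp-8, pgp-12, glt-3, exc-4) summed to 16.4 to 29.97 CPM in the pan-neuronal libraries, within the range of 8.00 to 100.7 in the sorted types. The part of canal RNA in the exc-7 levels was not tested. Among types, AWB, PVD and VD were above ASG and AVG in 6 called pairs, each of which was lost without at least 1 library.

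The Muscleblind gene mbl-1 varied most among the types, with a ratio of 56.6 between the highest and lowest type mean. AVG had 1151, 2874 and 4314 CPM, and PVD had 870.0 and 1586. DD had 534, 534 and 572 CPM, and VD had 247, 368, 370.3 and 388. The 4 groups did not overlap one another except AVG and PVD, and VD overlapped the pan-neuronal libraries. How many of all genes had no overlap between these small groups was not counted. Of the pairs among them, only AVG above DD and AVG above VD were called. In the other types the values were lower: 107, 113 and 186 CPM in AVE, 70.6 to 89.8 in AWB, 24.0 to 80.4 in ASG and 23.6 to 77.4 in AWA. The log2 difference from the pan-neuronal group was 2.80 ± 0.51 in AVG (edgeR adjusted p = 7.95e-05), between 2.20 and 3.17 under the alternatives. In PVD it was 1.62 ± 0.55 (adjusted p = 0.0317), and that call ended without PVD 62, PVD 63, pan-neuronal 1 or pan-neuronal 11 (adjusted p from 0.0609 to 0.376, with a difference of 0.95 without PVD 63). DD (0.45 ± 0.50) and VD (-0.22 ± 0.47) were not called. The differences in ASG, AWA and AWB were -2.97 ± 0.53, -3.01 ± 0.53 and -2.29 ± 0.47 (edgeR adjusted p from 2.33e-05 to 2.24e-04). In AVE the difference was -1.56 ± 0.55 (adjusted p = 0.0267), lost with library totals alone and without AVE 40 or AVE 41 (adjusted p up to 0.0778).

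Between types, 17 of 28 pairs were called for mbl-1, against the shares of all genes given above for each pair. AVG was above every type other than PVD, and PVD and DD were each above ASG, AVE, AWA and AWB. VD was above ASG, AWA and AWB. The pairs AVE with DD and AVG with DD were lost without single libraries (adjusted p up to 0.176 and 0.076), and the other 15 were not lost under any alternative. Summed markers of body-wall muscle were 11101 to 13706 CPM in AVG, 13767 and 20087 in PVD and 22778 to 29740 in AVE. All 10 groups had counts for all 11 of these markers, and their part in the mbl-1 levels was not tested.

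**Figure D3:**
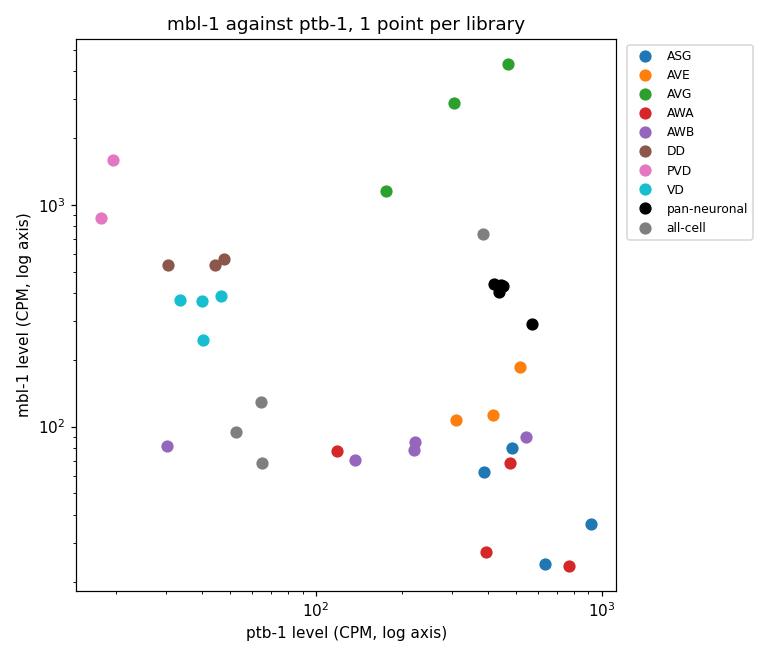
Level of mbl-1 (y axis) against ptb-1 (x axis) in CPM on log axes, with 1 point per library coloured by group. PVD, DD and VD lie at the upper left (mbl-1 at 247 to 1586, ptb-1 at 17.7 to 47.6), ASG, AWA and AVE at the lower right apart from AWA 20, and AVG at the upper right.

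The polypyrimidine tract binding protein gene ptb-1 fell into a low and a high set of types. It had 17.7 and 19.6 CPM in PVD, from 26 counts in both libraries together. DD had 30.5, 44.2 and 47.6 CPM, and VD had 33.6, 39.95, 40.3 and 46.5. ASG had 388, 487, 635 and 921 CPM, AVE 309.9, 417 and 519, and AVG 177, 305 and 472. AWA had 118 CPM in AWA 20 and 393, 479 and 766 in the others, and AWB had 30.3 in AWB 51 and 138 to 544 in the others. Apart from AWB 51, no library of these 5 types was as low as any of DD, PVD or VD. The pan-neuronal libraries had 421 to 570.3 CPM. Against them the log2 differences were -3.51 ± 0.68 in DD (edgeR adjusted p = 1.47e-04), -4.65 ± 0.91 in PVD (3.71e-04) and -3.53 ± 0.60 in VD (1.47e-05). The mean level was 24.97 times lower in PVD and 11.4 and 11.6 times lower in DD and VD. None of these 3 calls ended under any alternative, and the adjusted p was at most 0.0247. The other 5 types were not called, with log2 differences from -1.003 ± 0.51 in AWB (adjusted p = 0.106) to 0.39 ± 0.52 in ASG (0.615).

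Between types, 16 of 28 pairs were called for ptb-1. Of these, 15 set ASG, AVE, AVG, AWA or AWB above DD, PVD or VD, with log2 differences from 2.51 (AWB and DD) to 5.03 (ASG and PVD). The pairs of AVG and of AWB with PVD were lost without either PVD library (adjusted p up to 0.0999), and the last also when fitted with its groups alone. The remaining pair, ASG above AWB, was near the threshold (adjusted p = 0.0497) and was lost under most alternatives. DD, PVD and VD were also lower than the all-cell group, by -1.79, -2.92 and -1.81 (adjusted p from 0.015 to 0.0471), where 19.2%, 18.3% and 21.4% of all genes were called in either direction. Each of these calls ended without all-cell 27, which had 383 CPM of ptb-1 against 52.4, 64.1 and 64.7 in the other all-cell libraries. Without it the differences were -0.57, -1.70 and -0.59 (edgeR adjusted p = 0.481, 0.0815 and 0.408). The DD call also ended without DD 83, DD 84 or DD 86, with no low-count filter and with its groups alone. The PVD call ended without PVD 62 or PVD 63 and with its groups alone, and the VD call without VD 77, VD 78 or VD 81.

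Of the Rbfox pair, asd-1 had type means closer together than fox-1. The ratio between the highest and lowest type mean was 3.55 for asd-1, the smallest of the 8 genes, and 9.17 for fox-1. For asd-1, 6 of 28 pairs of types were called, with ASG above AVE, AVG, AWB and VD and AWA above AVG and VD. Of these, 3 were lost under another setting and 4 without some single library. For asd-1, ASG had 188, 249, 371 and 446 CPM and AWA 72.5, 258, 288 and 504, both overlapping the pan-neuronal libraries at 256 to 302. VD had 66.8, 101, 103.97 and 126 CPM and AVG 78.2, 86.1 and 101, below all pan-neuronal libraries. AVE, AWB and PVD also lay below them, as did 22.9% (AWB) to 30.3% (VD) of all genes tested in these types. The differences were -1.54 ± 0.42 in VD (edgeR adjusted p = 0.00264) and -1.71 ± 0.48 in AVG (0.00679). AVE (-1.25 ± 0.46, adjusted p = 0.0369) and AWB (-1.10 ± 0.39, 0.0216) were called too. The AVE call ended with no low-count filter and without AVE 40, AVE 42, pan-neuronal 1 or pan-neuronal 12, and the AWB call with no low-count filter, with its groups alone and without AWB 51 (adjusted p up to 0.123 and 0.0827).

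For fox-1, known in C. elegans also for reading X chromosome number in sex determination, the pan-neuronal libraries had 303, 304, 307, 325 and 424 CPM. AVE came nearest, with 208, 215 and 273 CPM, below every pan-neuronal library but not called (-0.52 ± 0.45, edgeR adjusted p = 0.393). In AVE, 29.6% of all genes tested were lower without overlap. The other 7 types were called lower. Their log2 differences ran from -1.54 ± 0.42 in AWA (edgeR adjusted p = 0.00405) to -3.63 ± 0.55 in AVG (6.29e-06), where the libraries had 12.2, 21.6 and 42.2 CPM. The PVD call ended without PVD 62 (adjusted p = 0.15). Of 28 pairs of types, 11 were called, of which 4 were lost under another setting and 7 without some single library. AVE was above ASG, AVG, AWB and VD. The pair with ASG was lost without any of ASG 15, ASG 16, AVE 40, AVE 41 or AVE 42 (adjusted p up to 0.137), with no low-count filter and without mitochondrial genes, and the pairs with AVG, AWB and VD held throughout.

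Set against each other per kilobase of the deposited gene length, asd-1 was above fox-1 in 34 of the 37 libraries, but which gene was higher turned with the length used. The length deposited for fox-1 was 4331 bases, against 2521 bases of merged exons in the WBcel235 annotation, and that for asd-1 was 2140 against 2568. With merged exon lengths asd-1 was above fox-1 in 27 libraries, and the ratio was below 1 in every AVE (0.458 to 0.633) and pan-neuronal library (0.700 to 0.965). With deposited lengths the ratio of the asd-1 to the fox-1 level was 0.944, 0.979 and 1.30 in AVE, the lowest of the types, and 1.44 to 1.99 in the pan-neuronal libraries. It was 2.62 and 3.04 in PVD, 3.67 to 4.05 in DD, 3.23 to 6.53 in VD, 3.99 to 5.73 in AWA and 6.34 to 11.03 in ASG. AWB (2.17 to 10.6) and AVG (4.13 to 12.95) spread more widely. The AVE range lay below that of every other type; among all-cell libraries the ratio ran from 0.856 in all-cell 27 to 4.37. The order of groups is the same with either length.

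**Figure D4:**
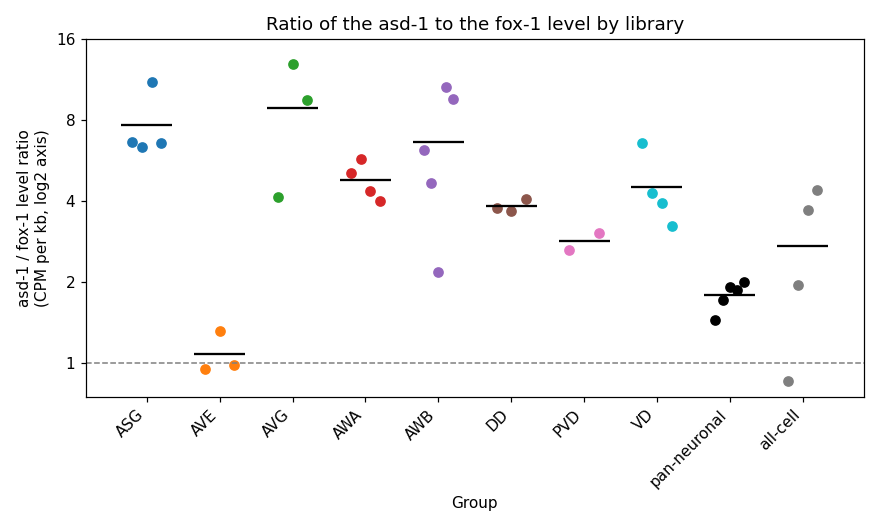
Ratio of the asd-1 to the fox-1 level, each in CPM per kilobase (y axis, log2 scale), by group (x axis), with 1 point per library, a bar at the group mean and a dashed line at equal levels. AVE (0.944 to 1.30) lies below the other 7 types (2.17 to 12.95); the line's place depends on the deposited lengths, since with merged exon lengths AVE is at 0.458 to 0.633 and the pan-neuronal libraries at 0.700 to 0.965.

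The RNA-binding protein gene mec-8 was highest in PVD and AWA. PVD had 192 and 471 CPM, and AWA had 310.1, 334 and 498 with 63.6 in AWA 20. AVG had the lowest values of the types, 31.8, 33.6 and 43.9 CPM, within the span of the all-cell libraries at 39.4 to 44.3 or below it. VD had 48.1 to 68.6 CPM, DD 54.7 to 109 and AVE 65.8 to 80.3. The pan-neuronal libraries had 167, 184, 184, 190.3 and 247 CPM, and PVD and AWA overlapped them. The log2 differences from them were 0.76 ± 0.43 in PVD (edgeR adjusted p = 0.206) and 0.63 ± 0.35 in AWA (0.158). Without AWA 20 the AWA difference was called (0.97, adjusted p = 0.00977), and without PVD 63 the PVD difference was -0.21. AVE, AVG, DD and VD were lower, from -1.42 ± 0.41 in DD (adjusted p = 0.00601) to -2.40 ± 0.44 in AVG (1.03e-04), in all alternatives.

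Between types, 15 of 28 pairs were called for mec-8, of which 12 set PVD or AWA above ASG, AVE, AVG, AWB, DD or VD. ASG was above AVG and VD, and AWB above AVG. PVD and AWA were not told apart from each other. Of the 15, 6 were lost under another setting and 7 without some single library. Without PVD 63, 5 of the 6 PVD pairs were lost, all but PVD above AVG. The 6 PVD markers, among them the mechanosensory genes mec-3 and mec-10, summed to 6945 CPM in PVD 62 and 12870 in PVD 63, and in AWA 20 the AWA markers were at 1134 against 2720 to 13231 in the other AWA libraries.

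The gene sup-12, whose protein resembles vertebrate RBM24, was highest in DD, VD and AWB. DD had 140.5, 210.3 and 237 CPM, VD 52.5, 84.8, 104.08 and 135, and AWB 18.7 in AWB 51 and 52.96 to 108 in the others. It was low in PVD (10.9 and 11.5 CPM, from 16 counts together) and AVG (2.44, 9.59 and 12.3, from 19 counts), and also in AWA (8.29 to 24.8) and ASG (8.80 to 38.9). The pan-neuronal libraries, at 121.95 to 154 CPM, overlapped both DD and VD. Against them the log2 differences were -2.88 ± 0.56 in ASG (edgeR adjusted p = 8.96e-05), -3.92 ± 0.72 in AVG (1.02e-04), -3.19 ± 0.57 in AWA (3.13e-05) and -3.58 ± 0.84 in PVD (0.00215; lost without PVD 62, adjusted p = 0.0639). AVE, AWB, DD and VD were not called, from -1.19 ± 0.57 (adjusted p = 0.11) to 0.54 ± 0.53 (0.441). Between types, 15 of 28 pairs were called, with DD, VD and AWB each above ASG, AVG, AWA and PVD, and AVE above ASG, AVG and AWA. Of these, 6 were lost without some single library, namely the 3 of AVE and the 3 with PVD.

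In 7 of 10 groups the library with the most body-wall muscle RNA also had the most sup-12. In AWB it had the least, and in PVD the lower value (10.9 against 11.5 CPM). Groups held 2 to 5 libraries, so some matches can arise by chance, and the other members were not counted this way. In ASG 15, sup-12 was at 38.9 CPM against 8.80 to 12.7, in DD 83 at 237 against 140.5 and 210.3, and in VD 78 at 135 against 52.5 to 104.08. The summed muscle markers were 24560 CPM in ASG 15, 23997 in DD 83 against 11919 and 13882, and 26466 in VD 78 against 9932 to 13737. AWB 51 had 20371 CPM of muscle markers against 6904 to 11654, and 18.7 CPM of sup-12. Between groups, AVE had 22778 to 29740 CPM of muscle markers and 38.9 to 79.8 CPM of sup-12, and the lowest DD library had 11919 and 140.5. The part of muscle RNA in the sup-12 levels was not tested. Without ASG 15 the ASG difference from the pan-neuronal group was -3.61.

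Related types were also compared directly. The GABAergic DD and VD neurons were not told apart in any of the 8 genes (0 called by edgeR and 0 by DESeq2, where 0.184% of all genes, or 28, were called by edgeR and 87 genes by DESeq2). The edgeR count over all genes was 2 with both groups fitted alone and 4 to 19 without single libraries. At an unadjusted p under 0.05 there were 2, fox-1 (1.26 ± 0.46) and asd-1 (1.09 ± 0.46), both with DD above VD and no overlap between libraries; the lowest adjusted p was 0.631. The values of mbl-1 and sup-12 also did not overlap, with log2 differences of 0.67 ± 0.53 and 1.06 ± 0.56. How many of all genes had no overlap or an unadjusted p under 0.05 between DD and VD was not counted. These values therefore have no background to be read against. Between the olfactory AWA and AWB neurons 3 of the 8 genes were called, where 16.1% of all genes were. AWA was above AWB for fox-1 (1.53 ± 0.43, edgeR adjusted p = 0.0114) and mec-8 (1.40 ± 0.36, 0.00562) and below it for sup-12 (-2.34 ± 0.56, 0.00313). The libraries of both types overlapped for all 3 genes. The fox-1 and mec-8 calls were lost with both groups fitted alone and without AWA 17. Without AWA 20 and AWB 51 together 5 of the 8 genes were called. The count over all genes without both is not given here, so that rise has no background. When single libraries were left out, members called ranged from 1 to 4 and all genes called from 1510 to 3656.

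Ordering the 10 groups by mean level gives 72 neighbouring steps over the 8 genes. Only 2 of the steps were called: all-cell above DD for ptb-1, and AVE above ASG for sup-12 (edgeR adjusted p = 0.0368). The first was lost without all-cell 27 or without any single DD library, and the second without any of 5 single libraries. The pan-neuronal group had the highest mean for unc-75 (998 ± 50.96 CPM), exc-7 (222 ± 20.5) and fox-1 (332 ± 52.01), AVG for mbl-1 (2779 ± 1583), ASG for asd-1 (314 ± 117) and ptb-1 (608 ± 232), PVD for mec-8 (332 ± 198) and DD for sup-12 (196 ± 49.8). AVG had the lowest mean of the 10 groups for exc-7, fox-1, mec-8 and sup-12, and the lowest of the 8 types for asd-1.

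Taken per kilobase, the mixture of the 8 transcripts is described by mean shares, and differences in mixture between groups were not tested. Between DD and VD the shares overlapped for every gene but exc-7 and fox-1. In every ASG, AVE, AWA and pan-neuronal library unc-75 was the most abundant of the 8, at 37.9%, 38.3%, 33.5% and 34.9% of their summed level on average. In every AVG and PVD library mbl-1 led, with mean shares of 70.7% ± 10.1 (SD, n = 3) and 44.9% ± 3.67 (n = 2), and it led in 2 of 3 DD and 3 of 4 VD libraries at means of 27.1% and 27.4%. The share of ptb-1 was 0.911% in PVD, 2.50% in DD and 4.10% in VD, against 10.4% in AVG to 27.7% in ASG among the other types. The share of sup-12 was 22.9% in DD and 17.5% in VD, and 0.696% in AVG. With merged exon lengths it was 16.5% in DD and 12.4% in VD, mbl-1 led in all 3 DD libraries, and the share of fox-1 was 12.9% in place of 8.19% in AVE. The summed level was 1233 ± 40.2 CPM per kilobase in the pan-neuronal libraries and ranged in the types from 385 ± 89.1 in VD to 1147 ± 555 in AVG.

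**Figure D5:**
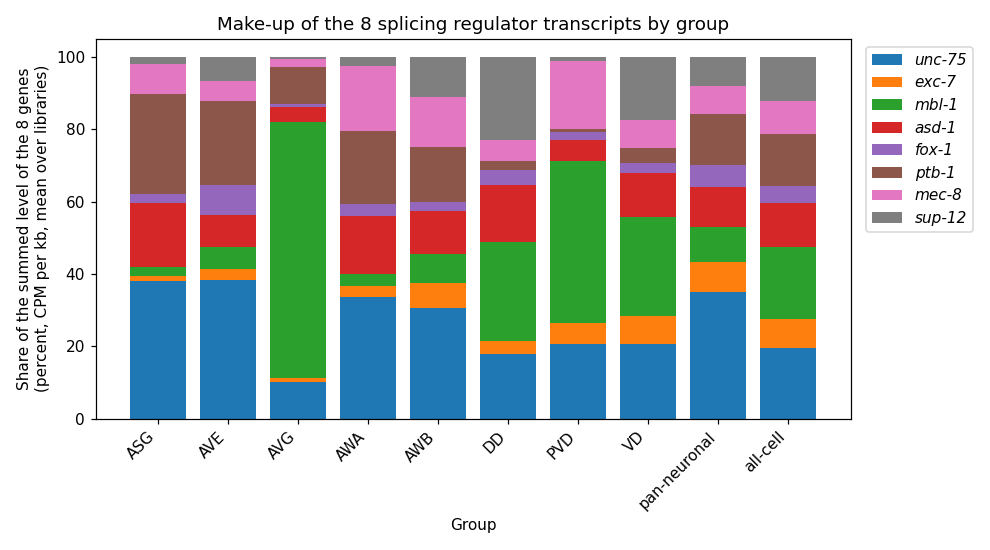
Mean share of each gene in the summed level of the 8 genes (y axis, percent of CPM per kilobase) by group (x axis), stacked to 100 percent. mbl-1 takes 70.7% in AVG and 44.9% in PVD, unc-75 33.5% to 38.3% in ASG, AVE and AWA, and sup-12 22.9% in DD.

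Across the 10 group means on the log2 scale, the Pearson correlation between members was highest for unc-75 and asd-1 (0.807) and lowest for mbl-1 and ptb-1 (-0.471). These are descriptions over 10 groups that share depth and purity within a group. By the same measure, over about 10288 other genes of sufficient level, the genes most like each member reached 0.91 to 0.99. For unc-75 these were C17D12.18 (0.99), a small nucleolar RNA gene that starts 150 bases past the end of unc-75 on the same strand, spg-20 and cka-2. For exc-7 they were Y49G5B.1, T26C5.4 and F59F3.6, and for mbl-1 F09G8.5, F59F5.5 and zyg-9. Those of asd-1 were the malic enzyme gene men-1 (0.975), the pseudogene WBGene00023289 and unc-119 (0.968), which is widely used as a neuronal marker. For fox-1 they were mutd-1, the pseudogene WBGene00017288 and C31H5.5, and for ptb-1 fkb-6 (0.931), the hnRNP A1 homologue gene hrpa-1 (0.922) and chat-1. For mec-8 they were the ligand-gated channel gene lgc-30 (0.972), the synaptotagmin gene snt-6 and nhl-3, and for sup-12 igeg-1, the muscle copine gene cpna-1 (0.932) and C54G4.4.

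Other genes of the splicing machinery were compared between the references, where 32.2% of all genes were higher and 26.9% lower. Of 10 other splicing regulators tested, 3 were higher in the pan-neuronal libraries, 2 lower and 5 not called, with a median log2 difference of 0.29 (over all genes the median was close to 0). The largest called differences were of gld-1 (-3.28 ± 0.53), a germline translational repressor, and the musashi gene msi-1 (2.39 ± 0.37; edgeR adjusted p = 6.1e-06 and 3.5e-06). The CELF gene etr-1, a relative of unc-75, was not called (-0.30 ± 0.36, adjusted p = 0.479), and asd-2, which encodes a STAR protein that regulates let-2 splicing, was higher (1.31 ± 0.39, 0.00451) and stood at 249 ± 124 CPM in PVD against 129 ± 7.46 in the pan-neuronal group. Of 9 genes of the SR list, 8 of SR proteins and the SR protein kinase gene spk-1, 2 were higher (rsp-8, 1.008, and spk-1, 0.997) and 3 lower, led by rsp-5 (-1.55), and of 7 hnRNP genes 1 was higher (hrpf-1, 0.91) and 1 lower (hrpk-1, -1.09). Of 15 core splicing factors 1 was higher and 9 were lower, led by prp-4 (-2.25), a U4/U6 particle protein, and the Sm protein gene snr-1 (-1.67), with a median of -0.80. Summed germline markers were 162 to 232 CPM in the pan-neuronal and 1254 to 2300 in the all-cell libraries; their part was not tested. The lower counts were 5 of 15 for the core factors without pan-neuronal 11, between 1 and 3 for the other regulators, and between 1 and 4 for the SR list when single libraries were left out. With library totals alone, 1 of the other regulators and 0 hnRNP genes and core factors were higher.

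Among the types, the AVE libraries stood apart in core splicing factors. Of these, 12 of 15 were higher than in the pan-neuronal libraries and 0 lower (13.1% of all genes were higher), with a median log2 difference of 1.21. Without AVE 40 or AVE 41 the count was 7 of 15, while the number of all genes higher fell from 1982 to 1036 and 1189. In the other 7 types 1 to 3 of the 15 were higher. Germline markers summed to 1154 to 1769 CPM in AVE and 1222 to 1618 in AVG, where 1 of the 15 was higher. Pan-neuronal markers summed to 3862 to 5595 CPM in AVE and 1524 to 3976 in the all-cell libraries. In the all-cell libraries 9 of the 15 were also above the pan-neuronal group. Body-wall muscle markers summed to 22778 to 29740 CPM in AVE. The part of other cells in the AVE counts was not tested. Over the 8 types, where 56.3% of all genes differed, 9 of the 15 core factors, 7 of 9 genes of the SR list, 6 of 10 other regulators and 1 of 7 hnRNP genes did. Of 8 genes known for regulated splicing, most as targets of the 8 regulators and let-2 as a target of asd-2, 5 were higher in the pan-neuronal than in the all-cell libraries, 1 was lower and 2 were not called. The largest differences were let-2, a type IV collagen gene (-3.12 ± 0.58, edgeR adjusted p = 3.96e-05), and sad-1, a kinase gene of synapse formation (2.90 ± 0.52, 2.23e-05). These counts are of gene levels and hold no measure of exon use.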

How the data were processed

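The deposited table holds unnormalized whole-number counts for each gene and library. STAR, SAMtools and featureCounts are named in the submitters' processing notes; versions, settings, strand use and genome build were not given in these sources. The deposited name carries WormBase release 274. Of 30631 genes, 27849 were paired with a symbol, and positions come from the WBcel235 annotation by gene identifier (30584 genes matched). Libraries were made with the SoLo Ovation kit after sorting into Trizol LS, per the labels.

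CPM was computed from counts, library totals and TMM factors; per-kilobase values use the deposited gene length. All 37 libraries entered 1 edgeR 4.0.16 quasi-likelihood fit (R 4.3.3, filterByExpr by group, 15181 genes tested), with 45 pairwise contrasts and a test over the 8 types. Calls used a threshold of 0.05 on p-values adjusted by Benjamini-Hochberg over all genes within a contrast. Fold changes are log2 differences with standard errors. The fit was also run on simulated counts with a single dispersion for all genes and no libraries that stood apart. The libraries here differ from that setting, so the run does not bear on the calls above. Totals of 251586 to 5415925 set the precision, and floors (3 counts) cover counting error only. In 54 pairs of libraries of 1 group, counts differed by a chi-square of 2.45 to 101 per degree of freedom, so none were merged.

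Alternatives were DESeq2 size factors, library totals without TMM, all genes with any count kept, mitochondrial genes left out (34; the table held 0 ribosomal RNA genes), the DESeq2 1.42.0 test, fits of the compared groups alone, AWA 20 and AWB 51 left out together, and each library left out in turn. Beside the 8 members, the text names for each the 3 genes with the highest correlation of group mean log2 CPM (prior count 2, at least 20 CPM in the highest group, no overlap with the member), and from each of 5 lists the 2 called genes with the largest difference, plus etr-1 and asd-2. Of the listed genes, tiar-3 and unc-52 were not matched and xol-1 did not pass the filter. Merged exon lengths of the annotation, and the alternatives for core factors in AVE, were added after the values were seen. The members, lists and rules were chosen with earlier results of these data known.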

Additional observations from a re-analysis of the deposited data

Results flagged for a closer look

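In each group of 4 or 5 libraries, the highest and the lowest value of each gene were compared with the nearest other library (Dixon's test at its 95% critical value). Of 48 gene and group combinations 9 stood out, where chance gives about 1 in 20. All-cell 27 was the high library in 4 of them: mbl-1 was at 740.0 CPM (68.3 to 129.6 in the other all-cell libraries), fox-1 at 124 (33.2 to 47.9), ptb-1 at 383 (52.4 to 64.7) and sup-12 at 182 (21.4 to 29.9). The same library had 451 CPM of the AVE marker list, 221 of the AVG list and 29067 of body-wall muscle markers; the part of these in the 4 values was not tested.

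Pan-neuronal 1 stood apart in 3 genes, with mbl-1 low at 289 CPM (405 to 437 in the others), fox-1 high at 424 (303 to 325) and ptb-1 high at 570.3 (421 to 452). This library also had 414 CPM of the AWA marker list (7.03 to 15.9 in the others), 955 of the ASG list (234 to 269), 166 of the AWB list (35.9 to 53.9) and 28188 of the pan-neuronal list (20562 to 21227); their part in the 3 values was not tested. In ASG 15, sup-12 was at 38.9 CPM (8.80 to 12.7), the library with the most body-wall muscle RNA in its group. In VD 79, mbl-1 was at 247 CPM (368 to 388).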

How the results depend on the processing

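No paired analysis was possible because no replicate number is shared between groups. Of 38 calls against the pan-neuronal group 30 held under every alternative, and the 6 calls between the references held under all. With the compared groups fitted alone, 8 members instead of 4 were called in PVD against pan-neuronal libraries, and 5562 instead of 3435 of all genes; for AVE 7762 instead of 5101 genes were called. With no low-count filter 13265 instead of 8540 genes were called in VD. When single libraries were left out, members called ranged from 2 to 4 in AVE, 3 to 7 in AWB and 1 to 4 in PVD, and all genes called in PVD from 965 to 3146; the extremes were without AVE 40, AWB 50 and PVD 62. Members called ranged from 4 to 4 in ASG, 6 to 7 in AVG, 4 to 5 in AWA and DD, 6 to 6 in VD, 6 to 8 between the references and 7 to 8 among the types. Library totals alone moved the median log2 difference over all genes to -0.47 between the references, and to 0.42 (AWA), 0.37 (DD), 0.26 (PVD), 0.41 (VD) and 0.18 (AWB) against pan-neuronal libraries. Under them 4054 genes were higher and 5509 lower between the references (4881 and 4077 with TMM), 3695 and 2738 in DD (2773 and 3162) and 2048 and 1771 in PVD (1342 and 2093). The larger direction also turned in AWA (3677 and 2759, from 2740 and 3002), AWB (3637 and 3173, from 2982 and 3653) and VD (5223 and 3672, from 4207 and 4333). The number of all genes higher fell to 1099 in AVG without AVG 43 (from 1770) and to 1740 in DD without pan-neuronal 11 (from 2773).

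The differences that turned sign were not called as reported or where they turned. With library totals alone they were mbl-1 in VD (0.10, from -0.22), asd-1 in ASG (-0.022, from 0.12) and AWA (0.034, from -0.04), and ptb-1 in AVE (0.0016, from -0.16). For asd-1 in AWA the other reversed values were 0.033 with no filter, 0.046 with its groups alone, 0.16 without AWA 20 and AWB 51 and 0.28 without AWA 20, and for asd-1 in ASG -0.17 and -0.01 without ASG 13 and ASG 14. For ptb-1 in AWA they were 0.0047 with its groups alone, 0.11 without AWA 20 and AWB 51 and 0.23 without AWA 20, from -0.08. Between DD and VD, ptb-1 turned from 0.02 to -0.04, -0.11 and -0.05 without DD 83, DD 84 and VD 78, and mec-8 from 0.32 to -0.077 without DD 83. In PVD, mec-8 turned from 0.76 to -0.21 without PVD 63. Over single libraries left out, the extremes on the other side were -0.48 for asd-1 and -0.49 for ptb-1 in AWA, 0.23 for asd-1 in ASG, 0.20 for ptb-1 and 0.50 for mec-8 between DD and VD, and 1.20 for mec-8 in PVD. The cause was not tested. With 26 counts of ptb-1 and 16 of sup-12 in both PVD libraries together, depth limits the size of those differences.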
